A study of Mus musculus with 3 samples.

Results

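Clonotypes shared by CD4 and CD8 T cells and not found in DN T cells are described here. A clonotype was a T cell receptor beta (TRB) chain with a given nucleotide CDR3 sequence, V gene and J gene, and its reads were the sequenced copies of its mRNA. The members were chosen by the measured reads, with at least 1 read in the CD4 library, at least 1 in the CD8 library and 0 in the DN library. They numbered 1961 of the 154480 distinct TRB clonotypes of the 3 libraries (1.27%). They were 4.38% of the 44807 TRB clonotypes of CD4 T cells and 2.41% of the 81212 of CD8 T cells. Of the 3898 clonotypes found in both CD4 and CD8 T cells they were 50.3%, and the other 1937 were found in DN T cells as well.

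The libraries came from the spleen of 1 MRL.lpr mouse aged 16 weeks, without any treatment named in the labels. MRL.lpr is a lupus-prone strain that carries the lpr mutation of the Fas death receptor, and the mutation was shared by all 3 groups. CD4 T cells, CD8 T cells and DN T cells, the last lacking both coreceptors, were separated in a flow sorter, and 1000000 cells of each gave the mRNA for 1 library. The libraries hold receptor sequences only, so the labelled subsets were not checked here against Cd4 and Cd8 mRNA.

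A TRB chain is made in the thymus by joining a V, a D and a J gene segment. Enzymes trim the segment ends, and terminal deoxynucleotidyl transferase adds bases that no segment encodes, so the joint, which lies in the CDR3, differs between most cells. Chains that need few added bases can be made more than once in independent cells. The V and J genes supply the start and the end of the CDR3, and an out-of-frame joint gives no protein.

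The 5 shared clonotypes with the highest read count in the library where they were rarer are printed first, because their presence in both subsets rests on the most reads. Each CDR3 is given 5′ to 3′, from the codon of its first conserved residue, and capitals mark the bases that matched neither the common start of the V gene nor the common end of the J gene.
TRBV13-3 with TRBJ1-2: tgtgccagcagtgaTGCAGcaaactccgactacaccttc
TRBV13-1 with TRBJ2-7: tgtgccagcagtgatgGtgaacagtacttc
TRBV26 with TRBJ2-5: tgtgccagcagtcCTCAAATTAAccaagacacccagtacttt
TRBV17 with TRBJ2-3: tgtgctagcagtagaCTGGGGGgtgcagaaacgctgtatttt
TRBV4 with TRBJ2-1: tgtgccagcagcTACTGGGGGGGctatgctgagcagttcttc

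The TRBV13-3 clonotype had 23 reads in CD4 and 8 in CD8 T cells, and 5 bases between its V-matched and J-matched ends. The TRBV13-1 clonotype, the shortest of the 5 at 30 nucleotides, had 8 and 18 reads and a single base that matched neither end. TRBV26 with TRBJ2-5 had 76 and 7 reads, TRBV17 with TRBJ2-3 had 55 and 7, and TRBV4 with TRBJ2-1 had 8 and 7. Of these 5, the TRBV13-1 clonotype was the one with more reads in CD8 than in CD4 T cells. The TRBV17 and TRBV4 clonotypes carried a TRBD2 call, and the other 3 had no D gene called.

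The members that were largest in either library are shown next, as they hold the most reads. The first 3 lines have the most CD4 reads and the last 3 the most CD8 reads.
TRBV5 with TRBJ1-1: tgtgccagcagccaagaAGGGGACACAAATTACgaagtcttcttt
TRBV13-1 with TRBJ2-4: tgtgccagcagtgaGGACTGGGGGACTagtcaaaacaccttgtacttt
TRBV13-2 with TRBJ2-5: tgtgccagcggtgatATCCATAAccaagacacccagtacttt
TRBV13-3 with TRBJ1-2: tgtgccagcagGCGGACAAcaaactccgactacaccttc
TRBV13-3 with TRBJ1-3: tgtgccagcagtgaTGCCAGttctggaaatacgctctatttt
TRBV31 with TRBJ2-1: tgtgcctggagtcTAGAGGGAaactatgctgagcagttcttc

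The TRBV5 clonotype was the largest member in CD4 T cells, with 247 reads (0.185% of CD4 TRB reads, rank 14) and 2 reads in CD8 T cells. The TRBV13-1 clonotype with TRBJ2-4 had 226 reads in CD4 and 1 in CD8, which made it the member with the highest ratio of shares (255). TRBV13-2 with TRBJ2-5 had 212 and 2 reads. Among these 3, reads in CD8 T cells were at or near the smallest count that can be seen. The next highest ratios, among members with at least 10 reads, were those of TRBV13-1 with TRBJ2-3 (184, with 163 CD4 reads and 1 CD8 read) and TRBV3 with TRBJ2-5 (179, with 159 and 1).

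In CD8 T cells the largest member was TRBV13-3 with TRBJ1-2, with 140 reads (0.0928% of CD8 TRB reads, rank 24) and 5 reads in CD4 T cells. TRBV13-3 with TRBJ1-3 had 121 CD8 reads and 1 CD4 read, and TRBV31 with TRBJ2-1 had 97 and 1. These last 2 also had the lowest ratios among members with at least 10 reads, at 0.00933 and 0.0116, followed by TRBV29 with TRBJ2-5 at 0.0185, with 61 CD8 reads and 1 CD4 read. The opposite library again held few reads of each. The 3 largest on the CD4 side had 8 to 16 bases between the V-matched and J-matched ends, and the 3 largest on the CD8 side had 6 to 8.

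The libraries held 133667 (CD4), 150874 (CD8) and 194290 (DN) TRB reads, so that 3 reads, the limit that a count of 0 allows, corresponded to 0.00224%, 0.00199% and 0.00154% of the reads. A clonotype called absent from DN T cells was therefore absent at that depth only. With 1 library per subset there was no replicate, and no test was made. The 95% intervals below are Wilson for shares, Newcombe for differences of shares and normal for differences of means. They treat each read or each clonotype as an independent count. Reads were not tagged by molecule before PCR, so copies of 1 molecule are counted apart. Intervals over reads therefore do not cover the error in molecules or cells, and clonotypes are not replicates of a subset. Intervals were not adjusted for the number of measures or genes compared. TRA clonotypes were few (82, 100 and 78), and 0 were shared by CD4 and CD8 T cells alone.

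Shared clonotypes held a larger part of the CD4 reads than of the CD8 reads. They took 15978 CD4 reads, which was 11.95% of the library (11.8 to 12.1%), and 4944 CD8 reads, which was 3.28% (3.19 to 3.37%). The ratio of these shares was 3.65. Over all 3898 clonotypes found in both libraries the corresponding ratio was 1.47, and over the 1937 found in all 3 libraries it was 1.00.

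Most members nevertheless had very few reads. In CD4 T cells the median was 2 reads (quartiles 1 and 5, highest 247), and 857 members (43.7%) had a single read. In CD8 T cells the median was 1 read (quartiles 1 and 2, highest 140), and 1125 members (57.4%) had a single read. Clonotypes found in 1 subset only had fewer reads still. CD4-only clonotypes had a mean of 2.26 CD4 reads, against 8.15 in members, and 64.1% had a single read. CD8-only clonotypes had a mean of 1.52 CD8 reads, against 2.52 in members, and 71.9% had a single read. These reads chose the members, so the comparison is a description. A single read in each library was the commonest combination, with 477 members (24.3%). At least 2 reads in both libraries were found for 456 members (23.3%), at least 5 in both for 32 (1.63%) and at least 10 in both for 0. No member was large in both subsets: the 72 members with 50 or more CD4 reads all had fewer than 10 CD8 reads, and the 7 with 50 or more CD8 reads all had fewer than 10 CD4 reads.

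**Figure D1:**
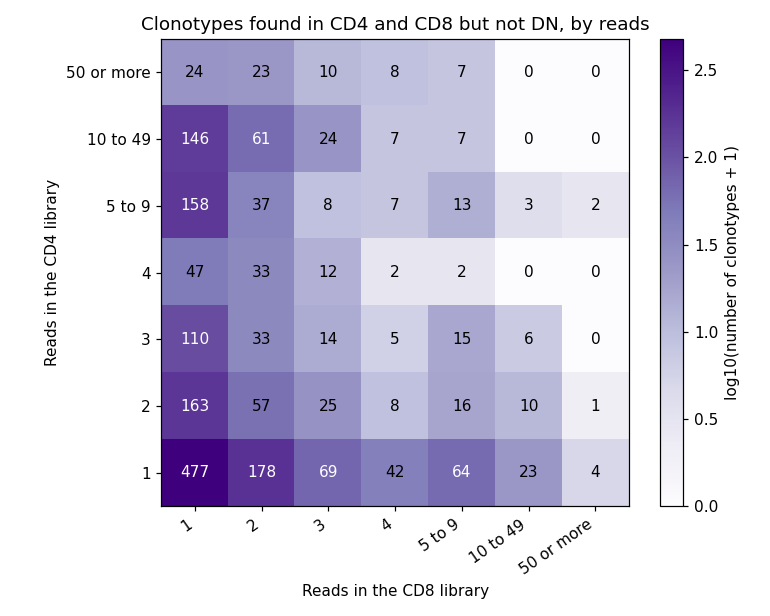
Number of clonotypes found in CD4 and CD8 T cells and not in DN T cells, by reads in the CD8 library (horizontal) and the CD4 library (vertical). Shading gives log10 of the number plus 1. The corner with 1 read in each library holds 477 clonotypes, and the cells with 10 or more reads in both libraries hold 0.

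The reads were concentrated in a minority of members. The 100 largest in CD4 T cells held 51.5% of the members' CD4 reads, and the 100 largest in CD8 T cells held 36.2% of their CD8 reads. Such concentration was not particular to the members. In the larger set of 3898 clonotypes found in both libraries, the 100 largest held 48.7% of its CD4 and 46.1% of its CD8 reads. Of the 100 largest TRB clonotypes of the CD4 library 31 were members, against 9 of the 100 largest of the CD8 library. Members made up 4.38% of all TRB clonotypes of the CD4 library and 2.41% of those of the CD8 library. As given below, DN-absent clonotypes with more reads were more often found in the other library.

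The ratio of a member's share of CD4 reads to its share of CD8 reads had a median of 1.13 (quartiles 1.13 and 4.51). A ratio of 1.13 is the one given by equal counts at these 2 depths. On the log2 scale the median was 0.175, against 1.08 for the members with at least 2 reads in both libraries. The ratio was above 1 for 1485 members (75.7%), against 56.8% of all clonotypes found in both libraries and 37.7% of those found in all 3. Of these 1485, 552 had equal reads in both libraries, among them the 477 with 1 read in each, and lay above 1 through the library depths alone. More CD4 than CD8 reads were counted for 933 members (47.6%), against 34.1% of all clonotypes found in both. A share at least 4-fold higher in CD4 was seen for 524 members (26.7%), where 17.9% of all clonotypes found in both libraries were past that fold. A share at least 4-fold higher in CD8 was seen for 108 members (5.51%), where 13.5% of all clonotypes found in both were. These counts rest on the reads that chose the members and are a description.

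The share found in the other library was higher with more reads in a clonotype's own library. Among CD4 clonotypes absent from DN T cells, 3.31% of those with 1 read (3.10 to 3.53%) were found in CD8 T cells, 9.16% of those with 5 to 9 reads and 18.3% of those with 10 to 49. Of the 121 with 50 or more CD4 reads, 72 were found (59.5%, 50.6 to 67.8%). Among CD8 clonotypes absent from DN T cells the share found in CD4 T cells went from 2.14% at 1 read (2.02 to 2.27%) to 12.5% at 10 to 49 reads. With 50 or more CD8 reads it was 7 of 17 clonotypes (41.2%, 21.6 to 64.0%). Where the larger partner had 50 or more reads, the other library held 1.65 reads per 100 CD4 reads and 1.17 reads per 100 CD8 reads, counted over all DN-absent clonotypes of that size. The part of carry-over between sorts or libraries in these low partner counts was not tested.

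The CDR3 of members was shorter than that of clonotypes found in 1 subset only. The mean was 40.6 ± 4.33 nucleotides (SD, 1961 clonotypes), against 41.8 ± 5.29 in the 39092 clonotypes found in CD4 T cells only and 41.8 ± 5.03 in the 71479 found in CD8 T cells only. The difference was -1.28 nucleotides (-1.48 to -1.09) from CD4-only and -1.20 (-1.40 to -1.01) from CD8-only clonotypes. The median was 42 nucleotides in all 3 groups. A CDR3 of 36 nucleotides or less was found in 22.2% of members, 15.2% of CD4-only and 15.9% of CD8-only clonotypes. A CDR3 of 48 nucleotides or more was found in 6.48%, 11.8% and 12.9%, so the shift was present at both ends of the distribution. Among in-frame clonotypes, the class of 13 residues held 25.2% of members against 20.6% and 20.2%, and the class of 15 residues held 17.4% against 23.1% and 21.6%. Counted over CD4 reads in place of clonotypes, the difference in mean length from CD4-only clonotypes was -0.386 nucleotides, while over CD8 reads that from CD8-only clonotypes was -1.16.

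The shortening lay in the bases between the V-matched start and the J-matched end. These hold the D-derived and added bases, and any V or J bases that lie beyond the common ends. Members had a mean of 8.67 ± 4.09 such bases, CD4-only clonotypes 10.95 ± 5.34 and CD8-only clonotypes 10.73 ± 4.83. The medians were 9, 11 and 10 bases, and the largest values 42, 221 and 174. The difference was -2.29 bases (-2.48 to -2.10) from CD4-only and -2.06 (-2.25 to -1.88) from CD8-only clonotypes, which is more than the difference in length. The V-matched start was longer in members, at 13.60 bases against 13.01 in CD4-only and 13.15 in CD8-only clonotypes, and so was the J-matched end, at 18.3 bases against 17.9 in both. Members with 4 or fewer bases between the matched ends made up 15.5%, against 5.51% of CD4-only and 5.95% of CD8-only clonotypes. In 28 members (1.43%, 0.990 to 2.06%) the ends met with no base between them, against 0.240% of CD4-only and 0.353% of CD8-only clonotypes. Over reads, the mean difference was -0.703 bases from CD4-only and -2.05 from CD8-only clonotypes.

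**Figure D2:**
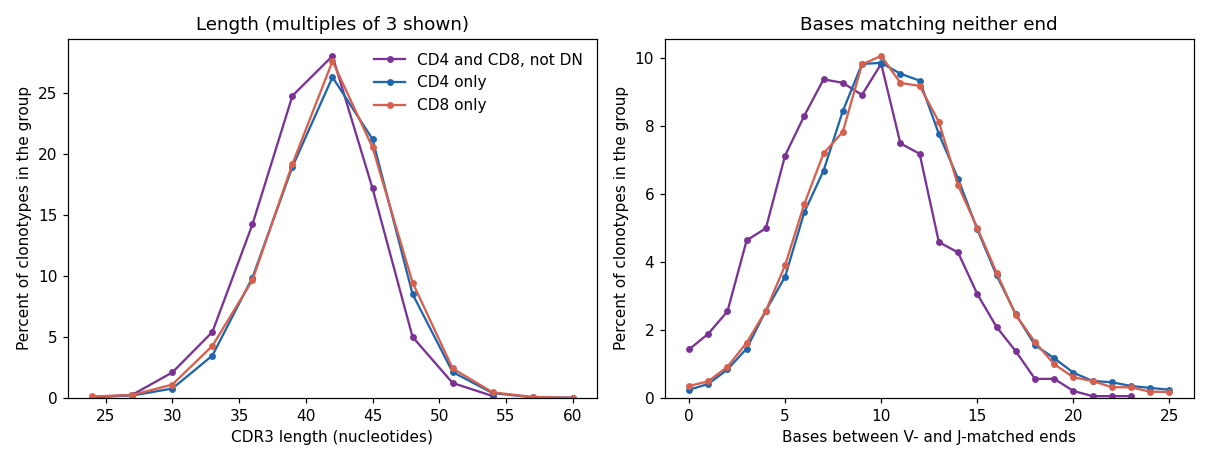
Percent of clonotypes by CDR3 length in nucleotides (left, multiples of 3) and by the number of bases between the V-matched and J-matched ends (right), for clonotypes of CD4 and CD8 but not DN T cells, CD4 only and CD8 only. The members lie to the left of both comparison groups, with 15.5% of them at 4 or fewer bases against 5.51% and 5.95%.

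The other classes of shared clonotypes had more of these bases. Members differed by -1.91 bases (-2.17 to -1.66) from clonotypes found in all 3 libraries, which had a mean of 10.6. They differed by -1.89 (-2.09 to -1.68) from those of CD8 and DN only (10.6) and by -1.72 (-1.98 to -1.46) from those of CD4 and DN only (10.4). Just outside the rule, the 180 clonotypes found in all 3 libraries with a single DN read had a mean of 8.89 bases and a mean length of 40.9 nucleotides. Just inside it, the 477 members with 1 read in each library had 8.70 bases and 40.7 nucleotides. The 1237 clonotypes of all 3 libraries with 10 or more DN reads had 11.02 bases.

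The shorter joint was found with nearly every V gene and every J gene that had at least 20 members. Of the 13 V genes with at least 20 members, all 13 had a lower mean number of bases between the matched ends in members than in CD4-only and in CD8-only clonotypes, and for 12 of 13 each interval lay below 0. The exception was TRBV2, with 23 members, where the differences were -0.23 (-1.79 to 1.32) and -0.55 (-2.11 to 1.02) bases. The difference from CD4-only clonotypes was widest for TRBV13-2 (-2.90 bases, -3.44 to -2.37). All 12 J genes with at least 20 members had intervals below 0 against both groups.

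Seen from the libraries, clonotypes with fewer bases between the matched ends were more often shared. Among CD4 clonotypes absent from DN T cells, 16.5% of those with 0 to 2 such bases (115 of 696, 13.9 to 19.5%) were found in CD8 T cells, 5.83% of those with 7 to 8 and 1.98% of those with 16 or more (98 of 4960, 1.62 to 2.40%). Among CD8 clonotypes absent from DN T cells, the share found in CD4 T cells was 8.39% at 0 to 2 bases (7.03 to 9.97%), 3.29% at 7 to 8 and 1.17% at 16 or more (0.960 to 1.42%). The share was lower in each wider class in both libraries.

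**Figure D3:**
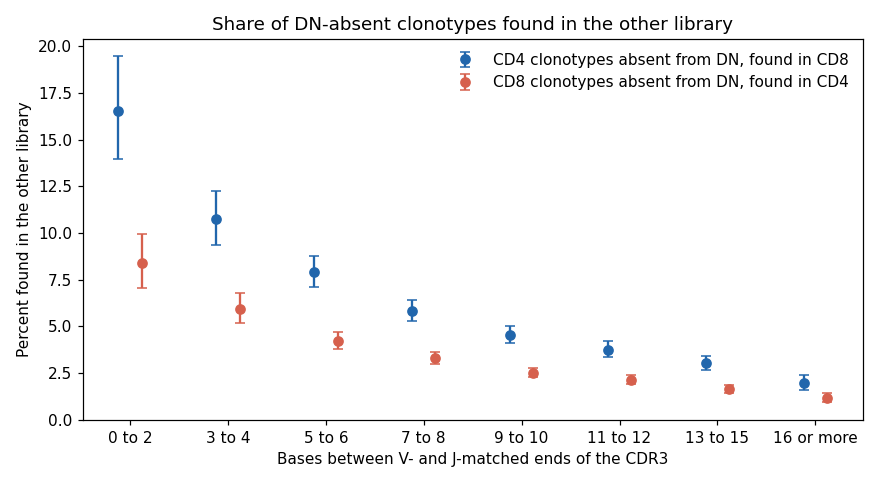
Percent of CD4 clonotypes absent from DN that were found in CD8 T cells, and of CD8 clonotypes absent from DN that were found in CD4 T cells, by the number of bases between the V-matched and J-matched ends. Points are shares and bars 95% Wilson intervals. The share is 16.5% and 8.39% in the class of 0 to 2 bases and 1.98% and 1.17% at 16 or more.

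The difference in these bases was widest among clonotypes with few CD4 reads. Members with 1 CD4 read differed from CD4-only clonotypes with 1 read by -2.99 bases (-3.26 to -2.72). At 5 to 9 CD4 reads the difference was -1.32 (-1.90 to -0.738), at 10 to 49 reads -0.544 (-1.15 to 0.0644) and at 50 or more -0.402 (-1.76 to 0.958), so the last 2 intervals included 0. In CD8 T cells the difference was -1.93 (-2.16 to -1.70) at 1 read, -1.56 (-2.37 to -0.757) at 5 to 9 reads and -1.19 (-2.73 to 0.353) at 10 to 49. For the 7 members with 50 or more CD8 reads it was 0.214 (-4.43 to 4.86), and all these intervals overlapped each other.

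The members with 10 or more CD4 reads and 1 or 2 CD8 reads (254) had a mean of 9.996 bases between the matched ends and no D gene in 27.2%. The 32 members with at least 5 reads in both libraries had 6.63 bases and no D gene in 56.3%, and their mean length was 38.6 nucleotides. Members past 4-fold towards CD4 had 9.57 bases, 1.23 more (0.813 to 1.65) than the 8.34 of the 1329 members within 4-fold. Members past 4-fold towards CD8 had 8.28 bases, a difference of -0.0631 (-0.948 to 0.822) from those within 4-fold.

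In-frame CDR3 sequences without a stop codon made up 1930 of the 1961 members (98.4%, 97.8 to 98.9%). The share was 91.5% in CD4-only clonotypes, a difference of 6.88 points (6.17 to 7.42), and 94.9% in CD8-only clonotypes, a difference of 3.53 points (2.85 to 4.02). With at least 2 reads required in each library these differences were 3.57 and 0.861 points. The 31 other members comprised 30 frameshifts and 1 stop codon. They held 434 CD4 reads and 56 CD8 reads. TRBV31, the V gene that lies downstream of the J and C genes in inverted orientation, supplied 14 of the 31 (45.2%), against 17.7% of the corresponding CD4-only and 19.99% of the CD8-only clonotypes.

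The 3 out-of-frame members with the most reads are shown because an out-of-frame joint makes no receptor.
TRBV31 with TRBJ1-2: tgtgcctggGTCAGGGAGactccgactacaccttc
TRBV13-3 with TRBJ2-7: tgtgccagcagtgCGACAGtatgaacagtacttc
TRBV31 with TRBJ2-7: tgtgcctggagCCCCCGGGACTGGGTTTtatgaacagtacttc
Their reads in CD4 and CD8 T cells were 193 and 6 for TRBV31 with TRBJ1-2, 96 and 3 for TRBV13-3 with TRBJ2-7, and 36 and 2 for TRBV31 with TRBJ2-7. The ratios of their CD4 to CD8 shares were 36.3, 36.1 and 20.3, so all 3 lay on the CD4 side.

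D gene use differed as well. No D gene was called in 689 members (35.1%, 33.1 to 37.3%), against 25.9% of CD4-only and 25.9% of CD8-only clonotypes, which is 9.28 (7.15 to 11.5) and 9.27 (7.16 to 11.4) points more. Over reads, these differences were 3.23 and 13.3 points. TRBD1 was called in 38.8% of members, 45.3% of CD4-only and 42.01% of CD8-only clonotypes, and TRBD2 in 26.1%, 28.9% and 32.1%. A D gene is called from those of its bases that are left in the joint. Within CDR3 sequences of 36 nucleotides or less, 65.8% of members had no D gene, against 54.5% and 53.2%. With the comparison groups weighted to the members' CDR3 lengths, the difference was 4.74 and 5.21 points. At 42 to 47 nucleotides the share was 21.0% (18.4 to 23.8%), against 18.6% and 19.0%. At 48 nucleotides or more it was 3.94% of members (1.69 to 8.89%, 5 of 127), below the 6.51% and 6.62% of the comparison groups, which lay within the members' interval. The number of bases between the matched ends was lower in members both without a D gene (5.11 against 7.29 in CD4-only and 7.03 in CD8-only clonotypes) and with one (10.6 against 12.23 and 12.02).

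TRBD2 lies downstream of the TRBJ1 genes, and by deletion it joins TRBJ2 genes. TRBD2 was called in 20 of the 686 members with a TRBJ1 gene (2.92%, 1.90 to 4.46%), against 5.71% of CD4-only and 5.24% of CD8-only clonotypes with a TRBJ1 gene. With TRBJ2 genes, TRBD1 was called in 31.5% of members, against 35.6% of CD4-only and 34.0% of CD8-only clonotypes, and TRBD2 in 38.6%, against 42.3% and 44.0%.

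For most V genes with at least 20 members, the members' use lay between that of the CD4-only and CD8-only clonotypes. Of the 13 V genes with at least 20 members, the members' share was between the shares of both groups for 11, above both for TRBV13-2 and below both for TRBV19. The interval of the difference from CD4-only clonotypes included 0 for TRBV13-2 and for TRBV19. TRBV29, with 18 members, was also below both groups (0.918% against 1.62% of CD4-only and 3.18% of CD8-only clonotypes), with both intervals below 0. Several other V genes with fewer than 20 members had shares below both groups as well. The absolute differences summed over 29 V genes and divided by 2, which is the share of clonotypes that would need another V gene to match, was 14.04 percentage points from CD4-only and 20.9 points from CD8-only clonotypes. The interval of the difference excluded 0 for 12 V genes against CD4-only clonotypes (4 higher, 8 lower) and for 14 against CD8-only clonotypes (6 higher, 8 lower).

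The 5 V genes with the most members were TRBV13-2, TRBV31, TRBV13-1, TRBV5 and TRBV1. TRBV13-2, formerly Vβ8.2, was used by 272 members (13.9%), against 12.5% of CD4-only and 9.92% of CD8-only clonotypes. TRBV31 (Vβ14) was used by 230 (11.7%), against 8.87% and 11.9%. TRBV13-1 (Vβ8.3) was used by 226 (11.5%), against 11.8% and 8.15%. Its difference from CD4-only clonotypes was -0.314 points (-1.69 to 1.21), but 3.84 points over reads. With clonotypes matched on the nucleotide CDR3 alone it was 3.20 points, and that of TRBV13-2 went from 1.36 to -1.37 points. The place of these 2 genes relative to CD4-only clonotypes therefore depended on the processing. TRBV5 (Vβ1) and TRBV1 (Vβ2) differed in side. TRBV5 was used by 207 members (10.6%), which was close to its 10.9% in CD4-only and above its 4.96% in CD8-only clonotypes. TRBV1 was used by 190 members (9.69%), above its 5.92% in CD4-only and below its 11.2% in CD8-only clonotypes.

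Against CD4-only clonotypes the widest gains were TRBV13-3 (Vβ8.1), with 8.87% of members and 4.83% of CD4-only clonotypes (4.04 points, 2.84 to 5.39), TRBV1 (3.77 points, 2.52 to 5.18) and TRBV31 (2.86 points, 1.48 to 4.38). The widest losses were TRBV2 (Vβ4), with 1.17% against 4.55% (-3.38 points, -3.82 to -2.76), TRBV4 (Vβ10; -3.03 points, -4.02 to -1.87) and TRBV20 (Vβ15; -2.25 points, -3.39 to -0.947). Most of these differences were smaller over reads in place of clonotypes, at 0.55 points for TRBV13-3, 1.13 for TRBV1, 0.53 for TRBV31, -2.06 for TRBV2 and -0.53 for TRBV4, while TRBV20 stood at -3.22. With clonotypes matched on the nucleotide CDR3 alone, which takes the V gene of the larger entry, TRBV31 stood at 0.25 points, TRBV1 at 1.64, TRBV2 at -2.08, TRBV13-3 at 7.37 and TRBV20 at -4.06. These are genes that also separated CD8-only from CD4-only clonotypes: TRBV13-3 made up 15.04% of CD8-only clonotypes, and TRBV20 made up 2.90%.

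Against CD8-only clonotypes the widest gains were TRBV5 (5.598 points, 4.30 to 7.04), TRBV20 (4.85 points, 3.74 to 6.12) and TRBV13-2 (3.95 points, 2.48 to 5.57). The widest losses were TRBV13-3 (-6.16 points, -7.37 to -4.80), TRBV14 (Vβ13; 1.78% of members against 6.91%, -5.12 points, -5.66 to -4.41) and TRBV29 (Vβ7; -2.26 points, -2.62 to -1.72). When reads were counted in place of clonotypes, TRBV29 turned to a gain of 0.835 points, the loss of TRBV13-3 was -0.14 points, and TRBV13-2 (1.19), TRBV20 (3.12) and TRBV5 (3.33) were each lower by more than 1.5 times. With the nucleotide CDR3 alone, TRBV13-3 stood at -2.54, TRBV13-2 at 1.29 and TRBV20 at 3.20 points.

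**Figure D4:**
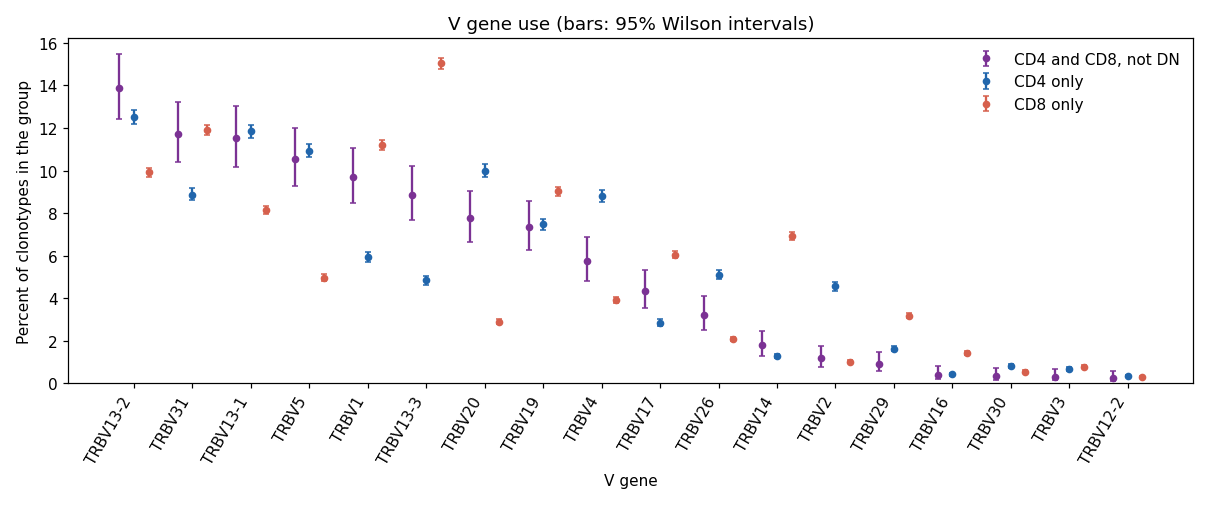
Percent of clonotypes using each V gene with at least 5 members, in the order of the members' share, for clonotypes of CD4 and CD8 but not DN T cells, CD4 only and CD8 only. Bars are 95% Wilson intervals. TRBV13-3 stands at 8.87% of members, between 4.83% of CD4-only and 15.04% of CD8-only clonotypes.

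V gene use among members differed with the side on which the reads lay. Of the 11 V genes named here, 4 were more frequent on the CD4 side, 4 on the CD8 side, and the interval included 0 for the other 3. The sides were cut from the reads that chose the members, so these values are a description. Median reads in CD4 and CD8 were 12 and 1 on the CD4 side, and 1 and 8 on the CD8 side. TRBV13-3 was used by 17.6% of the 108 members past 4-fold towards CD8 and by 7.25% of the 524 past 4-fold towards CD4, a difference of -10.3 points for the CD4 side (-18.8 to -3.79). TRBV14 was used by 7.41% and 1.15% of these (-6.26 points, -12.8 to -2.42), and TRBV20 by 1.85% and 8.97%. For TRBV20 the CD4 side was 7.12 points higher (1.99 to 10.2), and for TRBV5, with 12.2% and 4.63%, it was 7.58 points higher (1.30 to 11.6). On the CD8 side these shares rested on 19 members for TRBV13-3, 8 for TRBV14, 2 for TRBV20 and 5 for TRBV5. Counted over reads, TRBV13-3 held 16.0% of the members' CD8 reads and 5.83% of their CD4 reads.

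J gene use was nearer to that of the comparison groups. The same distance over the J genes was 5.29 points from CD4-only and 5.998 points from CD8-only clonotypes. TRBJ1 genes made up 34.98% of members, 36.8% of CD4-only clonotypes (difference -1.83 points, -3.97 to 0.357, an interval that includes 0) and 30.6% of CD8-only clonotypes (4.37 points, 2.26 to 6.54). TRBJ2-7, the commonest J gene, was used by 398 members (20.3%), against 16.7% of CD4-only clonotypes (3.61 points, 1.85 to 5.49) and 20.8% of CD8-only clonotypes (-0.510 points, -2.26 to 1.35).

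Of the other J genes, TRBJ1-5 (1.89% of members against 3.10%), TRBJ2-2 (4.08% against 5.13%) and TRBJ2-4 (6.78% against 8.22%) were lower than in CD4-only clonotypes, with intervals below 0. Against CD8-only clonotypes, TRBJ1-1 (9.89% against 8.54%), TRBJ1-2 (7.04% against 4.90%) and TRBJ1-3 (5.86% against 4.78%) were higher, and TRBJ2-1 (12.2% against 13.8%) and TRBJ2-4 (against 8.12%) were lower. The intervals of TRBJ1-4 (7.39%), TRBJ1-6 (2.91%), TRBJ2-3 (8.57%) and TRBJ2-5 (13.1%) included 0 against both groups. Over clonotypes with at least 2 reads, TRBJ2-4 turned to a higher share in members, by 0.245 points against CD4-only and 0.526 against CD8-only clonotypes. Counted over reads, TRBJ2-4 turned in the same way, TRBJ2-7 turned to -0.434 points against CD4-only clonotypes and TRBJ1-1 to -0.438 against CD8-only clonotypes. TRBJ2-6, listed as a pseudogene, was used by 0 members.

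**Figure D5:**
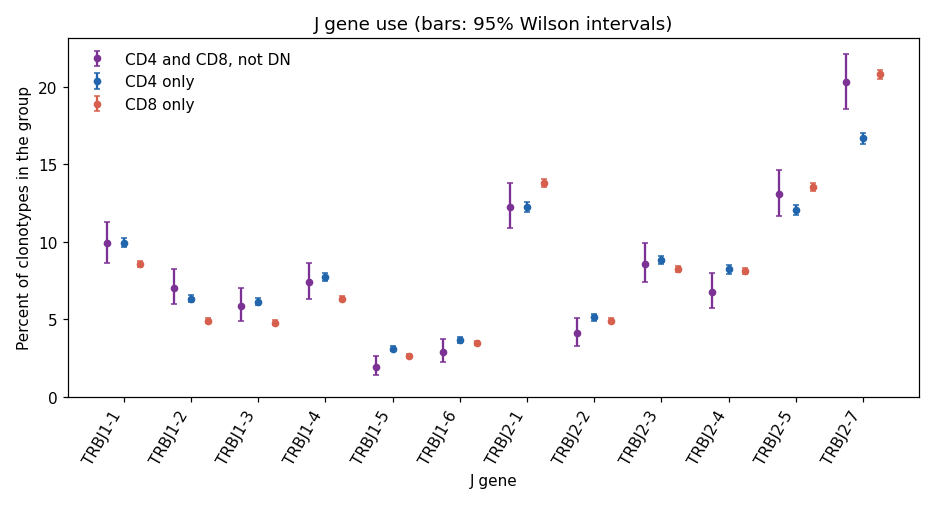
Percent of clonotypes using each J gene, for clonotypes of CD4 and CD8 but not DN T cells, CD4 only and CD8 only. Bars are 95% Wilson intervals. TRBJ2-7 stands at 20.3% of members, 16.7% of CD4-only and 20.8% of CD8-only clonotypes.

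The members used 179 pairs of V and J genes, and the 10 commonest pairs held 21.0% of them. TRBV13-2 with TRBJ2-7 was the commonest, with 74 members (3.77%), against 2.31% of CD4-only and 2.26% of CD8-only clonotypes. TRBV31 with TRBJ2-7 followed with 47 (2.40%, against 1.48% and 2.19%), and TRBV13-2 with TRBJ2-5 had 41 (2.09%, against 1.56% and 1.42%).

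Although no member had its nucleotide CDR3 with the same V and J genes in the DN library, some had their protein there. Of the 1930 in-frame members, 231 (11.97%, 10.6 to 13.5%) had the same amino acid CDR3, V gene and J gene as a DN clonotype with another nucleotide sequence. The share was 3.71% (3.52 to 3.91%) in CD4-only and 5.54% (5.37 to 5.71%) in CD8-only clonotypes. Members whose protein was in the DN library had a mean of 7.48 bases between the matched ends, and the other in-frame members 8.80. A DN clonotype of equal length and V and J genes that differed by 1 mismatch was found for 413 members (21.1%, 19.3 to 22.9%), against 6.36% of CD4-only and 9.36% of CD8-only clonotypes.

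Members were seldom 1 mismatch from a clonotype with at least 10 times their reads in the same library. This held for 27 members in the CD4 library (1.38%, 0.948 to 1.996%), against 1.69% of CD4-only clonotypes, and for 20 in the CD8 library (1.02%, 0.661 to 1.57%), against 0.744% of CD8-only clonotypes.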

How the data were processed

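The data were TRB clonotypes of 3 splenic T cell subsets (CD4, CD8, DN) of 1 MRL.lpr mouse, with 1 library each made with the Takara SMARTer Mouse TCRα/β kit. The authors used MiXCR for alignment and assembly (version, settings and genome build not given in the sources used here) and deposited, per library, the count of reads of each clonotype, not normalized. The deposited fraction of each clonotype is its count over the total of the table and was not used beyond a check.

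Clonotypes with TRB V and J genes were joined on nucleotide CDR3, V and J gene, with no filter on reads or frame. Shares were taken over 133667 (CD4), 150874 (CD8) and 194290 (DN) reads. The members, measures and lists were chosen with earlier results of these data known. No genome was given, so the common V start and J end of each gene with at least 30 in-frame clonotypes were read from the CDR3 sequences themselves, extending while 65% of clonotypes carried the next base. This level was set after seeing the data.

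With 1 library per subset no test was made: shares have 95% Wilson intervals, differences of shares Newcombe intervals and differences of means normal intervals, over clonotypes. Clonotypes named were the 5 members with the highest lower count, the 3 largest in either library, the 3 highest and 3 lowest ratios among those with at least 10 reads, and the 3 out-of-frame or stop members with the most reads. V genes named were the 5 with the largest share and the 3 with the widest difference each way from each group, and all J genes. TRBV19 was named as an exception after its values were seen. Older V gene names came from the RefSeq gene list of GRCm38.p6. Alternatives covered the matching key, minimum reads, frame, a single DN read, equal depth, merging of neighbours, and weighting. The functions were tested on simulated data. Python 3.11.15, NumPy 2.4.6, pandas 2.3.3, SciPy 1.17.1 and matplotlib 3.10.9 were used.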

Additional observations from a re-analysis of the deposited data

How the results depend on the processing

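The 10 differences of members from CD4-only and CD8-only clonotypes kept their direction in 92 of 92 recomputations. These differences covered length, bases between V and J, in-frame share, share without a D gene and TRBJ1 share. Of 156 recomputations of all main results, 114 stayed within the interval (or, for numbers and distances, within 1.5 times) and 42 moved. For the median ratio the members' quartiles stood in for the interval. Its value with at least 2 reads (log2 of 1.08 against 0.175) was therefore counted as staying. No paired analysis was possible because each subset had 1 sample. The alternative that takes gene ends from a genome was not run, since none was given; ends at a share of 50%, chosen after seeing the data, were run for the mean number of bases between V and J only, which stayed within its interval (-2.46 and -2.10).

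With at least 2 reads in each library, the members numbered 456, with 6.07% of CD4 and 1.27% of CD8 reads. Against CD4-only clonotypes the differences were then -1.70 nucleotides, -2.04 bases between V and J, 3.57 points in frame, 12.4 points without D and 8.27 points of J distance, and against CD8-only clonotypes -1.43, -1.79, 0.861 and 12.04. Matching on protein gave 3240 members (14.5% of CD4 and 5.46% of CD8 reads) and TRBJ1 differences of -4.19 and 2.20 points. Matching on the nucleotide CDR3 alone gave 13.1% and 4.03% of reads, lengths of -1.51 and -1.42 and -2.49 and -2.25 bases. In-frame members alone held 11.6% of CD4 reads. Allowing 1 DN read gave 14.4% and 4.26% of reads, and equal depth 12.3% and 3.67%. With comparison groups weighted to the members' reads, the differences were -2.04 and -1.84 bases and 5.42 points in frame (CD4-only). Weighted to the members' lengths, the difference without D was 4.74 and 5.21 points.

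Counted over reads, differences from CD4-only clonotypes were -0.386 nucleotides, -0.703 bases, 3.17 points in frame, 3.23 without D, -5.24 for TRBJ1 and 8.52 of J distance; from CD8-only clonotypes they were 13.3 points without D, 13 of V and 9.89 of J distance. The single genes that reversed were TRBJ2-4 (0.245 and 0.526 with at least 2 reads, 1.49 and 1.86 over reads, against CD4-only and CD8-only), TRBJ2-7 against CD4-only (-0.434 over reads), and TRBV29 (0.835) and TRBJ1-1 (-0.438) against CD8-only, both over reads. Of the single-gene recomputations, 367 stayed within the interval, 58 moved outside it and 7 reversed. A reversal was counted only where the main interval excluded 0. TRBV13-1 against CD4-only, whose interval included 0, went from -0.314 to 3.20 points with the nucleotide CDR3 alone and was counted as moved. The causes were not tested. With 1 mouse and 1 library per subset, no value has a replicate error, and absence from DN T cells holds at this depth only.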
